A study of Mus musculus with 2 samples.

Results

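The genes described here lie at the distal end of mouse chromosome 8 and form a list of 51, out of 23195 genes with at least 1 UMI (unique molecular identifier, a tag that marks 1 captured transcript) in the series. The genes were chosen by their place in the last 8 Mb of the chromosome and selected on a lower CPM ratio of PD800 to PD100, so the direction of the list as a whole is a result of how it was made and is given below as a description only. Positions did not bear out the rule for every gene. In the GENCODE annotation of GRCm38, 49 of the 51 genes are on chromosome 8, and Arid4b and Ggps1 are on chromosome 13. The 49 genes start between Gse1 and Itgb1, a span that reaches 9.01 Mb back from the last annotated base of the chromosome, and 2 of them, Gse1 and Emc8, start before the last 8 Mb. Nor were all of them lower at PD800.

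In the study, embryonic stem cells of the mouse without Terc, the gene for the RNA template of telomerase, were followed through long culture. Cells of the DKO741 line were profiled at PD100 (100 passage in the labels) and at PD800 (800 passage) by inDrops, a droplet method for RNA-seq of single cells. Both groups carry the Terc knock-out, both come from the same line, which was derived from E14 embryonic stem cells by targeting both alleles, and both were grown without feeder cells for the experiment. Each group is 1 library, so passage and library cannot be told apart, and no difference below has a replicate check or a test. Counts came from 814 cells with 1826233 UMIs at PD100 and from 900 cells with 2580963 UMIs at PD800, with medians of 2151 and 2701.5 UMIs per cell.

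All 10 markers of embryonic stem cells were found in both libraries, with a summed level of 12132 CPM (UMIs scaled to the same total in each library) at PD100 and 12715 CPM at PD800. Of 15 markers of extraembryonic endoderm, 15 were found at PD100 and 13 at PD800, where Gata6 and Srgn were at 0. The summed level of that list was 1133 CPM against 155 CPM, and cells with 5 or more of its UMIs, called endoderm-marker cells here, made up 7.62% of PD100 cells and 0.556% of PD800 cells. The median share of mitochondrial UMIs was 1.23% at PD100 and 4.42% at PD800. The 2 libraries shared 8 cell barcodes, and the summed log2 ratio of the list was -1.31 with or without them. Terc had 0 UMIs in both libraries, which does not check the genotype because the RNA has no poly(A) tail for this capture.

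Telomerase adds repeats to chromosome ends, and cells without it lose repeats as they divide. The paper reports that telomeres of this line first shortened and later lengthened again by a telomerase-independent mechanism, alternative lengthening of telomeres (ALT). It describes PD100 cells as cells before ALT and PD800 cells as stable survivors after ALT began. Mouse autosomes have their centromere close to one end, so the genes at high coordinates of chromosome 8 sit next to its distal telomere. The genes there share a place and not a function. They include an import receptor of mitochondria, an autophagosome protein, an integrin, enzymes of purine and lipid metabolism, a licensing factor of DNA replication and repair proteins.

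Levels are given as UMIs and CPM for each library. A relative log2 ratio is the log2 of PD800 CPM over PD100 CPM, less the median of the 6984 genes with 50 or more UMIs over both libraries, which was -0.34. Ratios were computed for the 35 members that reached 50 UMIs. Intervals of levels and ratios are exact, at 95%, and cover counting error only. Those of medians are order-statistic intervals over genes, at 95%, and reflect the spread between genes. Where the genes or the limits of a stretch were chosen by the ratio, such an interval is a description only. The term "2-fold lower" means a relative log2 ratio of -1 or lower.

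Summed over the members, UMIs were 9533 at PD100 and 5441 at PD800, or 5220 CPM against 2108 CPM. That is a log2 ratio of -1.31 (-1.36 to -1.26), or 2.48-fold lower, with no shift subtracted. Relative to the median of all tested genes it was -0.97 (-1.01 to -0.92), or 1.95-fold lower. Tomm20 made up 27.3% of the members' UMIs at PD100 and 15.4% at PD800. Without it the log2 ratio was -1.09 with no shift and -0.75 relative to the tested median, so the sum of the others was also lower. The median relative log2 ratio over the 35 genes was -0.84, with an order-statistic interval of -1.12 to -0.31. Of the 35, 13 were 2-fold lower, where 7.79% of all tested genes were. The counting interval lay wholly below 0 for 23, where 26.5% of all tested genes lay, wholly above 0 for 3, where 30.0% lay, and across 0 for 9. Since the same contrast chose the genes, nothing is read from these shares.

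On the CPM scale, with no shift, 30 of the 35 were lower at PD800 and 5 were higher. The median of all tested genes was itself -0.34 on this scale, so most tested genes were lower too. Nothing is therefore read from the 30. The CPM intervals of the 2 libraries did not overlap for 24 that were lower, where 35.2% of all tested genes were such, and for 1 that was higher, Tubb3, where 15.6% were such. Closest to the 2-fold line on its lower side were Map1lc3b at a relative log2 ratio of -1.02, Fanca at -1.12 and Rbm34 at -1.14. Closest on its other side were Slc7a5 at -0.96, Cdt1 at -0.88 and Aprt at -0.88.

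**Figure D1:**
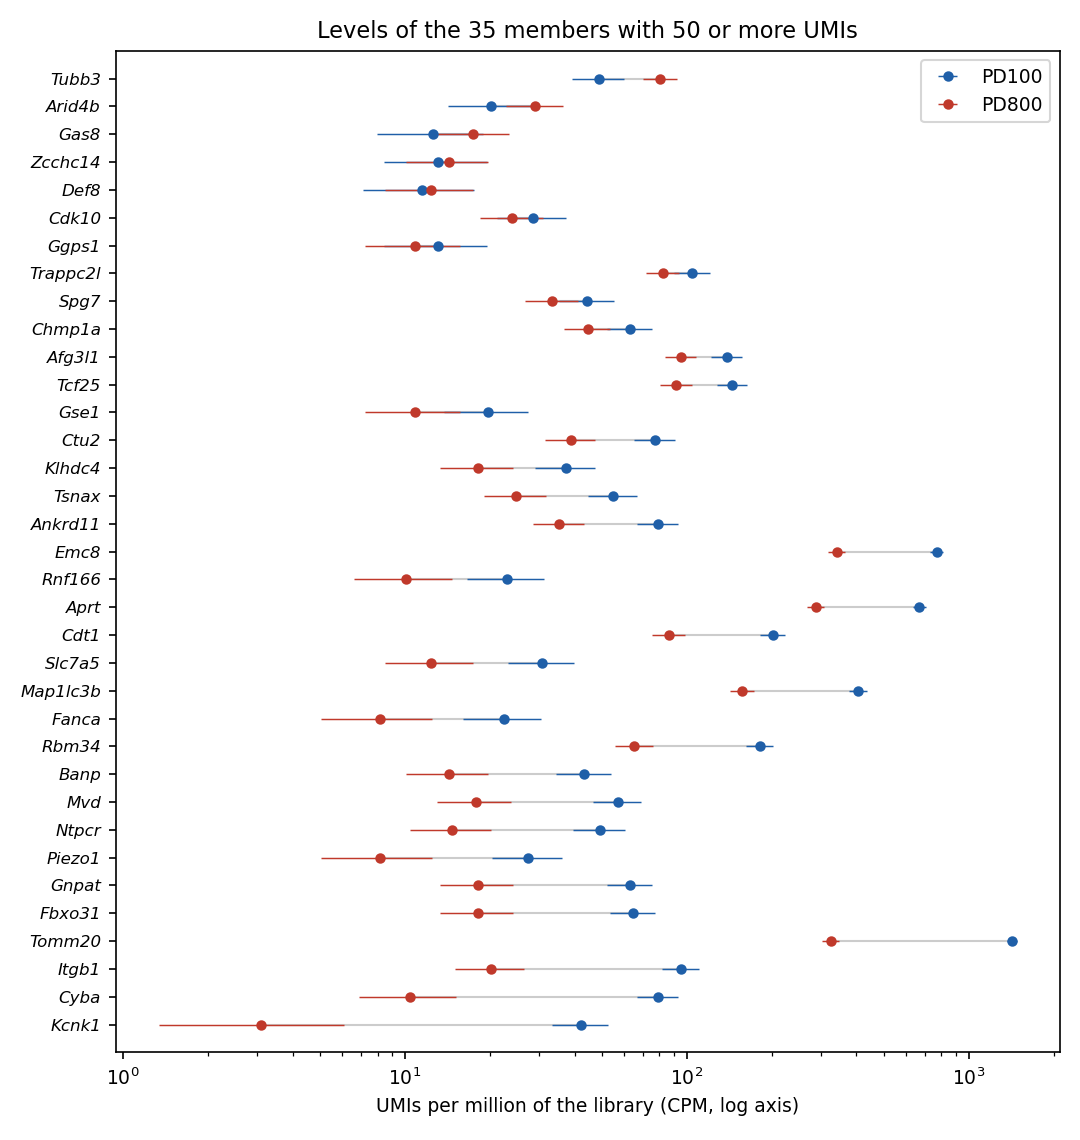
Levels of the 35 members with 50 or more UMIs in CPM (log axis), PD100 in blue and PD800 in red, with exact 95% Poisson intervals, ordered by the relative log2 ratio. Kcnk1, at the bottom, went from 42.2 to 3.10 CPM, and Tubb3, at the top, from 48.7 to 80.6 CPM.

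The role groups below hold few genes each, all selected on this ratio, so their counts are a description and the groups are not ranked. Counts of 2-fold lower genes are read against the 7.79% of all tested genes that were. Counts of intervals are read against the 26.5% of all tested genes wholly below 0 and the 30.0% wholly above 0. Among genes of the mitochondrion, Tomm20 was far lower at PD800 and both protease subunits were near the median of all genes. Tomm20 (chr8:126930667-126945844, minus strand) encodes a receptor of the TOM complex, which takes proteins into mitochondria. It had 2604 UMIs at PD100 and 836 at PD800, or 1426 CPM (1372 to 1482) and 324 CPM (302 to 347). Its relative log2 ratio was -1.80 (-1.91 to -1.68), which is 3.47-fold lower. With every cell thinned to 1000 UMIs, 69.5% of PD100 cells and 25.4% of PD800 cells kept a Tomm20 UMI; without thinning the shares were 85.9% and 49.1%. No cell type known to lack these genes is in the data, so no background share from free RNA can be given for this or the later shares. Afg3l1 and Spg7 are subunits of the m-AAA protease of the inner membrane. Afg3l1 had 253 and 246 UMIs, or 139 CPM and 95.3 CPM, and a relative log2 ratio of -0.20 (-0.46 to 0.06). Its thinned share of cells was 11.4% and 8.88%. Spg7 had 81 and 86 UMIs and a relative log2 ratio of -0.07, with an interval across 0.

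Of the 4 tested members in adhesion, transport and channels, 3 were 2-fold lower. Itgb1 (chr8:128685654-128733200, plus strand), the beta-1 subunit that pairs with many alpha subunits to make integrin receptors for the extracellular matrix, is the last member before the telomere. It had 174 UMIs at PD100 and 52 at PD800, 95.3 CPM against 20.1 CPM, and a relative log2 ratio of -1.90 (-2.38 to -1.45). Kcnk1 (chr8:125995170-126030685, plus strand), a potassium channel subunit, had 77 and 8 UMIs and the lowest relative log2 ratio of the list, -3.42 (-4.69 to -2.37). In cells thinned to 1000 UMIs, a Kcnk1 UMI was present in 3.42% at PD100 and 0.372% at PD800. Piezo1, a channel opened by membrane tension, had 50 and 21 UMIs and a relative log2 ratio of -1.41. Slc7a5, the light chain of the LAT1 transporter for large neutral amino acids, had 56 and 32 UMIs and a ratio of -0.96, with an interval below 0. Endoderm-marker cells held 28 of the 174 Itgb1 UMIs and 14 of the 77 Kcnk1 UMIs at PD100. In the other cells Itgb1 was at 88.2 CPM and 19.9 CPM, and Kcnk1 at 38.1 CPM and 3.13 CPM, so both were still lower at PD800.

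The group of lipid, nucleotide and lysosomal enzymes also holds Cyba, an oxidase subunit, and Egln1, a prolyl hydroxylase. Of the group's 6 tested genes, 4 were 2-fold lower, Cyba among them. Cyba (chr8:122424776-122432930, minus strand), the p22phox subunit of the membrane NADPH oxidase, had 144 UMIs at PD100 and 27 at PD800, or 78.9 CPM and 10.5 CPM, and a relative log2 ratio of -2.57 (-3.22 to -1.97). The share of thinned cells with a Cyba UMI was 6.78% and 0.947%. Aprt (chr8:122574635-122576909, minus strand), which salvages adenine into AMP, had 1222 and 739 UMIs, 669 CPM (632 to 708) against 286 CPM (266 to 308). This gave a relative log2 ratio of -0.88 (-1.02 to -0.75), and 42.2% and 22.2% of thinned cells kept an Aprt UMI. Gnpat, which starts ether lipid synthesis in peroxisomes, had 115 and 47 UMIs and a relative log2 ratio of -1.45. Mvd, the mevalonate diphosphate decarboxylase of isoprenoid and cholesterol synthesis, had 104 and 46 UMIs and a ratio of -1.33. Ntpcr, a nucleoside triphosphatase, had 90 and 38 UMIs and a ratio of -1.40. All of these had intervals below 0. Ggps1, the geranylgeranyl diphosphate synthase and one of the pair on chromosome 13, had 24 and 28 UMIs and a relative log2 ratio of 0.07, with an interval across 0; its CPM was 13.1 and 10.8.

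Genes of autophagy and vesicle traffic, grouped here with Emc8 of the endoplasmic reticulum, were split. Emc8 and Map1lc3b were lower, and the other 3 tested members had intervals across 0. Emc8 (chr8:120653914-120668573, minus strand), a subunit of the complex that inserts proteins into the membrane of the endoplasmic reticulum, had 1406 UMIs at PD100 and 878 at PD800, 770 CPM (730 to 811) against 340 CPM (318 to 363). Its relative log2 ratio was -0.84 (-0.96 to -0.71), and 47.9% and 26.1% of thinned cells kept an Emc8 UMI. Map1lc3b (chr8:121590361-121598760, plus strand), the LC3B protein that is joined to lipid on autophagosomes, had 738 and 405 UMIs, 404 CPM (375 to 434) against 157 CPM (142 to 173). The relative log2 ratio was -1.02 (-1.20 to -0.85), and the thinned shares of cells were 29.2% and 13.6%. Trappc2l, a subunit of the TRAPP tethering complex, had 191 and 212 UMIs, or 105 CPM and 82.1 CPM. Its relative log2 ratio of -0.01 (-0.30 to 0.28) was at the median of all genes, and 8.63% and 7.83% of thinned cells kept a UMI. Chmp1a, of the ESCRT-III membrane scission machinery, had 115 UMIs in each library and a ratio of -0.16. Def8 had 21 and 32 UMIs and a ratio of 0.45.

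All 5 tested genes of RNA and protein modification had intervals below 0, where 26.5% of all tested genes lay, and 2 were 2-fold lower. Rbm34, an RNA-binding protein, had 332 UMIs at PD100 and 168 at PD800, 182 CPM (163 to 202) against 65.1 CPM (55.6 to 75.7), with a relative log2 ratio of -1.14 (-1.42 to -0.87). Its thinned shares of cells were 13.3% and 6.13%. Fbxo31, a substrate receptor of an SCF ubiquitin ligase, had 118 and 47 UMIs and a ratio of -1.49. Ctu2, which helps to add sulfur to the wobble uridine of some tRNAs, had 141 and 100 UMIs, 77.2 CPM (65.0 to 91.1) against 38.7 CPM (31.5 to 47.1). Its ratio was -0.65 (-1.04 to -0.27), with thinned shares of 6.64% and 3.29%. Rnf166, an E3 ubiquitin ligase, had 42 and 26 UMIs and a ratio of -0.85. Tcf25, which takes part in ribosome quality control, had 264 and 237 UMIs, 145 CPM (128 to 163) against 91.8 CPM (80.5 to 104). Its ratio of -0.31 (-0.57 to -0.05) was the closest to 0 of the group, and its thinned shares of cells were 11.9% and 7.84%.

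Of the 4 tested genes of transcription and chromatin, Banp alone was 2-fold lower. Banp, which binds unmethylated CGCG motifs in promoters, had 79 and 37 UMIs and a relative log2 ratio of -1.25. Ankrd11, a chromatin regulator, had 144 and 91 UMIs, 78.9 CPM (66.5 to 92.8) against 35.3 CPM (28.4 to 43.3), and a ratio of -0.82 (-1.21 to -0.43). Its thinned shares of cells were 7.12% and 3.41%. Gse1, a component of LSD1 corepressor complexes, had 36 and 28 UMIs and a ratio of -0.52, with an interval across 0. Arid4b, of the SIN3 corepressor and the other gene on chromosome 13, was higher at PD800, with 37 and 75 UMIs and a ratio of 0.86 (0.28 to 1.47).

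The 3 tested genes of DNA replication and repair all had intervals below 0, where 26.5% of all tested genes lay. Cdt1, which loads the replicative helicase at origins, had 369 UMIs at PD100 and 223 at PD800, 202 CPM (182 to 224) against 86.4 CPM (75.4 to 98.5). The relative log2 ratio was -0.88 (-1.13 to -0.64), and 15.8% and 7.48% of thinned cells kept a UMI. Fanca, of the Fanconi anaemia core complex for crosslink repair, had 41 and 21 UMIs and a ratio of -1.12. Tsnax, the partner of the nucleic-acid-binding protein translin, had 100 and 64 UMIs and a ratio of -0.80.

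The 3 tested genes of the cytoskeleton and the cell cycle kinases were all above the median of all genes. Tubb3 (chr8:123411424-123422015, plus strand), the beta tubulin of neurons, had 89 UMIs at PD100 and 208 at PD800, 48.7 CPM (39.1 to 60.0) against 80.6 CPM (70.0 to 92.3). Its relative log2 ratio was 1.07 (0.70 to 1.44), the only one past 2-fold upwards among the 35 members, where 13.9% of all tested genes were. The thinned share of cells was 4.13% and 7.18%. Gas8, of the dynein regulatory complex of cilia, had 23 and 45 UMIs and a ratio of 0.81, with an interval just above 0. Cdk10 had 52 and 62 UMIs and a ratio of 0.10, with an interval across 0; its CPM was 28.5 and 24.0. Of the genes whose role is not stated here, Klhdc4 had 68 and 47 UMIs and a ratio of -0.69, and Zcchc14 had 24 and 37 UMIs and a ratio of 0.47, with an interval across 0.

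The other 16 members were under 50 UMIs and are named with their UMIs at PD100 and PD800 only. Irf2bp2, a transcriptional corepressor, had 25 and 15, and Acsf3, a malonyl-CoA synthetase of mitochondria, had 14 and 8. Egln1, the prolyl hydroxylase that marks HIF for degradation, had 16 and 6, Exoc8 of the exocyst had 11 and 6, and Vps9d1 had 11 and 10. Zfp276 had 5 and 8, Spire2, an actin nucleator, had 5 and 5, Sipa1l2 had 3 and 6, and Cpne7 had 4 and 4. Dbndd1 had 6 and 0, and Tarbp1, whose column carries the older name Gm17296, had 5 and 1. Galns, a lysosomal sulfatase, had 1 and 3, Zfpm1, a cofactor of GATA factors, had 0 and 3, and Sprtn, a protease for DNA-protein crosslinks, had 1 and 0. Nrp1, a coreceptor for semaphorins and VEGF, and Spata2l had 1 UMI in each library. A count of 0 allows up to 1.64 CPM at PD100 and 1.16 CPM at PD800. Summed over these genes there were 109 UMIs at PD100 and 77 at PD800, a relative log2 ratio of -0.66 (-1.10 to -0.22).

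The order along the chromosome was not used to rank the members, and it split the span into 3 stretches. Their limits were placed after the ratios were seen, so they are a description. From Gse1 to Aprt, the 20 tested protein-coding genes had a median relative log2 ratio of -0.88 (-1.25 to -0.65), and 7, or 35%, were 2-fold lower. Of all tested genes, 7.79% were 2-fold lower. Of the 20 genes, 15 are members, selected on this ratio, and the 5 others had a median of -0.27, with 1 of them 2-fold lower. Summed over all protein-coding genes the relative log2 ratio of this stretch was -0.43, over its members -0.93, and over all but Cox4i1, the gene with the most UMIs, -0.86. From Galns to Gas8, the 12 tested protein-coding genes had a median of -0.04 (-0.31 to 0.45), and 1 of them, Fanca, was 2-fold lower. That is 8.33%, near the share of all tested genes. From Rab4a to the chromosome end, the 17 tested genes, all protein-coding, had a median of -1.80 (-2.09 to -1.40), and 16 were 2-fold lower. Every one of these 17 had a counting interval below 0, from Kcnk1 at -3.42 to Tsnax at -0.80. Of all tested genes, 26.5% had such an interval. The middle stretch holds 11 tested members. The interval was wholly below 0 for 3 of them, Fanca, Ankrd11 and Tcf25, where 26.5% of all tested genes lay. It was wholly above 0 for Tubb3 and Gas8, where 30.0% of all tested genes lay, and across 0 for the other 6. Its protein-coding genes summed to 6246 CPM and 6365 CPM, but Rpl13, which is no member, made up 88.2% and 91.3% of those UMIs. Without Rpl13 the sum was 738 CPM at PD100 and 553 CPM at PD800, a relative log2 ratio of -0.07 (-0.18 to 0.03). The last stretch held 5624 and 1906 UMIs, 3080 CPM against 738 CPM, which is 4.17-fold lower before any shift.

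**Figure D2:**
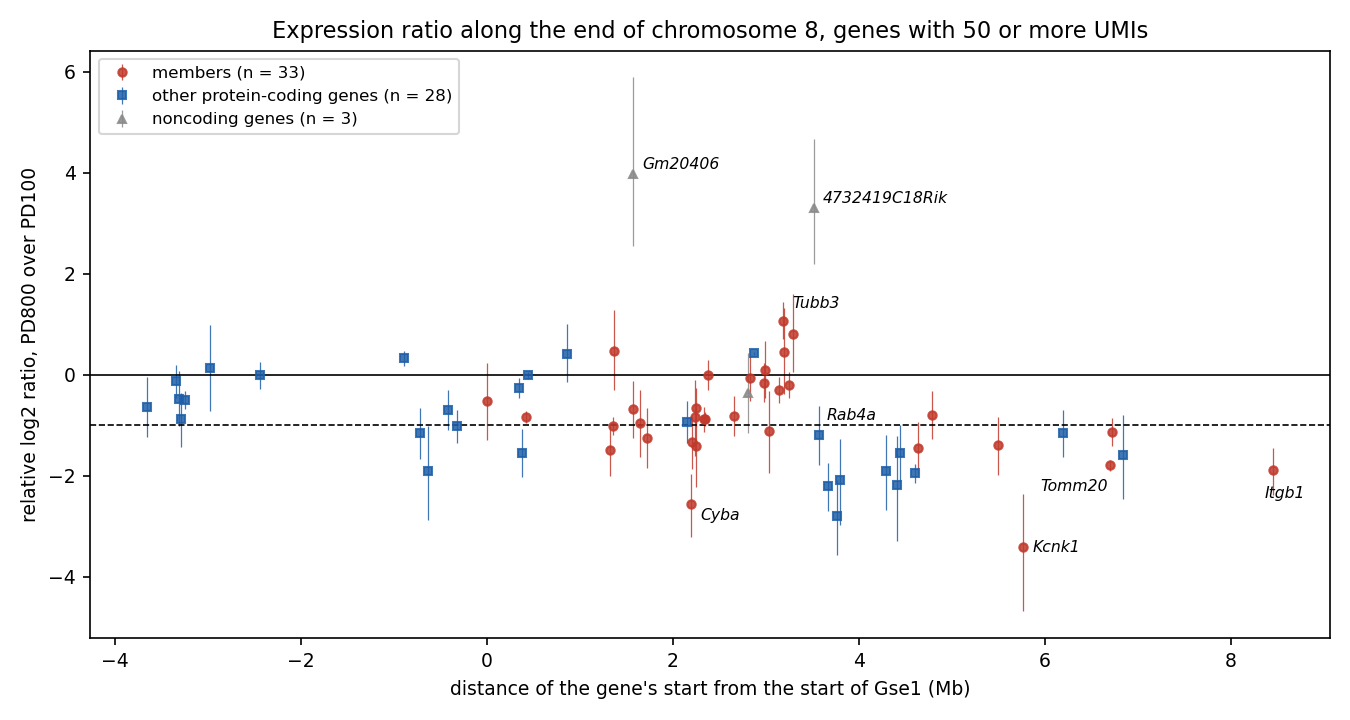
Relative log2 ratio of each gene with 50 or more UMIs against the distance of its start from the start of Gse1 (Mb), with exact 95% counting intervals; members are red circles, other protein-coding genes blue squares, noncoding genes grey triangles, and the dashed line is 2-fold lower. From Rab4a onwards all 17 genes lie below 0, while those of the members between Galns and Gas8 run from -1.12 for Fanca to 1.07 for Tubb3.

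The list holds only some of the genes of its own span. Of 211 genes with a column that start between Gse1 and Itgb1, 52 had 50 or more UMIs, 33 of them members and 19 not. Over all 52 the median relative log2 ratio was -0.91 (-1.25 to -0.65), and 24, or 46.2%, were 2-fold lower. Of all tested genes, 7.79% were 2-fold lower. Over the 19 other genes the median was -1.19, and 11 were 2-fold lower. The 10 other genes from Rab4a to the end were all 2-fold lower, with a median of -1.94. Taf5l, a subunit of histone acetyltransferase complexes, was the lowest of these, with 118 and 19 UMIs and a ratio of -2.79. Nup133, of the nuclear pore, had 200 and 48 UMIs and a ratio of -2.22. The list therefore leaves out genes as low as many of its own.

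Among the genes of the span that are not members, 4 had a relative log2 ratio of 0 or more. Rpl13, a protein of the large ribosomal subunit, had 10059 and 15000 UMIs and a ratio of 0.42 (0.38 to 0.46). Mthfsd had 45 and 67 UMIs and a ratio of 0.42, with an interval across 0. The remaining pair are noncoding. Gm20406, annotated antisense within Klhdc4, went from 4 UMIs to 70, a ratio of 3.97 (2.55 to 5.89). The lincRNA 4732419C18Rik, between Gas8 and Rab4a, went from 7 UMIs to 77, a ratio of 3.30 (2.19 to 4.66).

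Neighbouring genes can share sequence. In all, 13 members overlap another gene with 50 or more UMIs, each time on the opposite strand, among them Emc8 with Cox4i1 over 352 bases, Map1lc3b with Zcchc14 over 58, Klhdc4 with Gm20406 over 955 and Ctu2 with Piezo1 over 2441. How the counting treated strand is not given in the sources used here, so reads of such pairs may have been split. Cox4i1, a subunit of cytochrome c oxidase next to Emc8, had 4302 and 4739 UMIs and a ratio of -0.02 (-0.08 to 0.04).

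The rest of chromosome 8 was also below the median of all genes. The 350 tested genes before Gse1 had a median relative log2 ratio of -0.51 (-0.60 to -0.43), and 16.6% were 2-fold lower. Of all tested genes, 7.79% were 2-fold lower. The 29 genes of the 10 Mb just before Gse1 had a median of -0.41 (-0.63 to -0.09), but the 5 genes of the last 1 Mb of it had a median of -1.03, from -1.90 for Taf1c to 0.32 for Hsbp1. That is lower than the -0.39 over the 6 tested genes of the 1 Mb from the start of Gse1, so low values did not begin at Gse1. A running median over 15 genes in chromosome order reached its lowest value over the 402 tested genes, -1.80, at Ttc13, in the last stretch, and its highest was 0.22. The same values that chose the list enter a comparison of chromosome ends, which is therefore a description. Over the last 8 Mb of 20 chromosomes, the end of chromosome 8 had the lowest median, -0.99, with 50% of its 46 tested genes 2-fold lower. That of chromosome 19 was next, at -0.48, and the highest was 1.11.

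**Figure D3:**
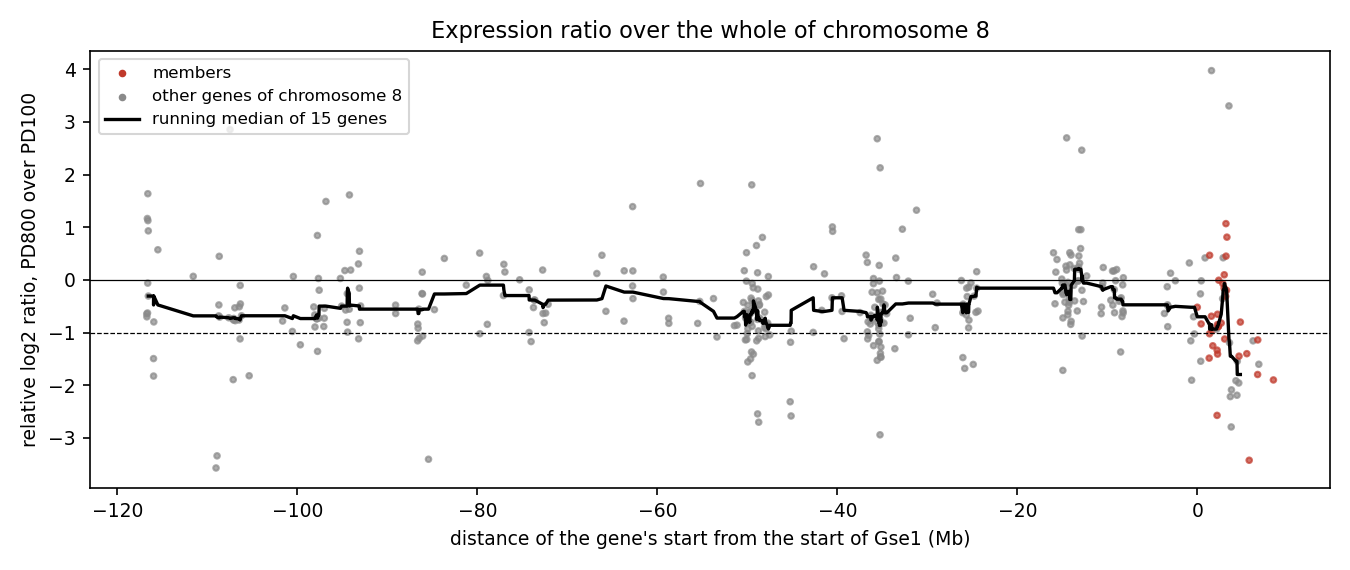
Relative log2 ratio of the 402 tested genes of chromosome 8 against the distance of their start from the start of Gse1 (Mb), members in red and other genes in grey, with the running median of 15 genes as a black line and the 2-fold line dashed. The running median has its highest value, 0.22, before the members and its lowest, -1.80, among the last genes of the chromosome.

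The promoters of the members were read to see what the low and the other genes share in sequence. Of the 51, 41 matched the RefSeq promoter table of GRCm38.p6, with 46 promoters of 250 bases before to 50 after the start. The sequences below are from 2 members of the last stretch that were low and 2 of the middle stretch that were not. They are written 5′ to 3′ on the gene's own strand, with the searched motifs found on either strand in capitals.
Tomm20, chr8:126945872-126946171, minus strand: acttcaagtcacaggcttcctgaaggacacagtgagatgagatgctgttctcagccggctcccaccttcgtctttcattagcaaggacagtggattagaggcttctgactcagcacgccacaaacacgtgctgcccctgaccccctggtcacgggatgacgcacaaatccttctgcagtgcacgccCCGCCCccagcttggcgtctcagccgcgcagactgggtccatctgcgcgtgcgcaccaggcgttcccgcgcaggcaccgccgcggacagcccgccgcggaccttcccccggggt
Itgb1, chr8:128685404-128685703, plus strand: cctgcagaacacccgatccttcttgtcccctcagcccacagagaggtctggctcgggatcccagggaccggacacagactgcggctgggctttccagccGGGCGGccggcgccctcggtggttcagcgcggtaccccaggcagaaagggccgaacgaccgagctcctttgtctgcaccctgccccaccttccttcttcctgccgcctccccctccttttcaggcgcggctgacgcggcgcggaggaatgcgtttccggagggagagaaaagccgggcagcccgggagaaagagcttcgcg
Tubb3, chr8:123411303-123411602, plus strand: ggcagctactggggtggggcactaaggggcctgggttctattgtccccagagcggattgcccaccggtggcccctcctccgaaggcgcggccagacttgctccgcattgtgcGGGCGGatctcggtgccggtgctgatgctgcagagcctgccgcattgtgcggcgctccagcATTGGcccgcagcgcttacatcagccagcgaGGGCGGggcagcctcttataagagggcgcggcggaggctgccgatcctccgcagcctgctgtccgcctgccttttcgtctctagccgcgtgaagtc
Trappc2l, chr8:122611376-122611675, plus strand: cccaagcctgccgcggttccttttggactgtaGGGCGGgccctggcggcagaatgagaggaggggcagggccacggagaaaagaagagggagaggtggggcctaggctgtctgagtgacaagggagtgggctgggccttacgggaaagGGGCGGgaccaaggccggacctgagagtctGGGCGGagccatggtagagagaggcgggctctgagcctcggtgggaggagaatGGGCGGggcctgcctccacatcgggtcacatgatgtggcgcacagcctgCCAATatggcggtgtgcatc

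All 4 windows are rich in G and C, at 63.7%, 67.3%, 67.3% and 65.3%, and all hold the letters GGGCGG of the GC box. Over the 46 promoters the median G and C content was 65.0% and the median number of CpG was 26.5, against 52.7% and 7 over all 32851 promoters of the table. GGGCGG stood in 76.1% of the members' promoters and 35.7% of all, CCAAT in 30.4% and 37.4%, TATAAA in 2.17% and 13.6%, CCGGAAG, an ETS motif, in 10.9% and 8.86%, and CTCGCGAG, a CGCG motif, in 4.35% and 0.919%. All were searched on both strands, and GC-rich windows hold GC-rich letters more often. The table was not limited to genes detected in these cells, and no set matched for level was read. CCAAT stood in 8 of 14 promoters of the middle stretch, in 2 of 16 of the first and in 2 of 14 of the last, and GGGCGG in 11, 14 and 10. Among tested members, CCAAT stood in 2 of 12 promoters of those 2-fold lower and in 5 of 8 of those at or above the median. GGGCGG stood in 10 and 4 of these. The 8 come from 7 genes, as Def8 has more than 1 promoter. They include the overlapping promoters of Arid4b and Ggps1 on chromosome 13, which both hold CCAAT. The promoters of Exoc8 and Sprtn lie head to head and share 288 bases, those of Arid4b and Ggps1 share 205, and those of Rnf166 and Ctu2 share up to 168. A match of letters is a description and no site of binding.

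To see whether the machinery around the members differed in the same way, 110 genes that work with them in 17 complexes or pathways, placed elsewhere or not on the list, were read beside them. Of these, 79 were tested, with a median relative log2 ratio of -0.09, and 5 were 2-fold lower and 7 were 2-fold higher, where 7.79% and 13.9% of all tested genes were. In the 14 complexes in which a member and a partner were tested, 12 of the 17 member values were below the median of their partners and 8 were below every tested partner. The members were chosen as low, so this order is partly given, and nothing is read from these counts. For Itgb1, Slc7a5 and Tsnax only 1 partner was tested, so "every" there means 1 gene. The interval of Slc7a5, -1.64 to -0.31, held the value of its partner Slc3a2, -0.77.

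In the TOM complex, where Tomm20 was at -1.80, the 5 tested partners were at 1.37 (Tomm7), 0.58 (Tomm5), 0.30 (Tomm22), -0.19 (Tomm70a) and -0.56 (Tomm40). Beside Itgb1 at -1.90, the 1 tested alpha subunit, Itga6, was at 0.57. Beside Emc8, the 8 tested subunits of its complex had a median of 0.01, from -0.51 to 1.73. Beside Map1lc3b at -1.02, its relatives Map1lc3a, Gabarap, Gabarapl1 and Gabarapl2 were at -0.86, -0.17, 0.57 and -0.09. Beside Fanca, its partners Fance, Fancl and Fancf were at -0.86, -0.45 and 0.87. Those of Cdt1 had a median of -0.19 over 14 genes, of which Mcm5 at -0.97 and Mcm3 at -0.95 were lower than Cdt1 itself.

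Other complexes were mixed. The 8 tested partners of the mevalonate pathway had a median of -0.84, between Mvd at -1.33 and Ggps1 at 0.07. Slc3a2, the heavy chain that pairs with Slc7a5, was at -0.77. Urm1, the sulfur carrier of the pathway of Ctu2, was at -1.22, lower than Ctu2 at -0.65. Afg3l2, at -0.28, was lower than both of its relatives on the list, and Tsn, the partner of Tsnax, was at -0.20. Chmp1a and Trappc2l, both of the middle stretch, were below the medians of their partners, 0.28 and 0.40. The 8 tested corepressor partners had a median of -0.13, between Gse1 and Arid4b.

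**Figure D4:**
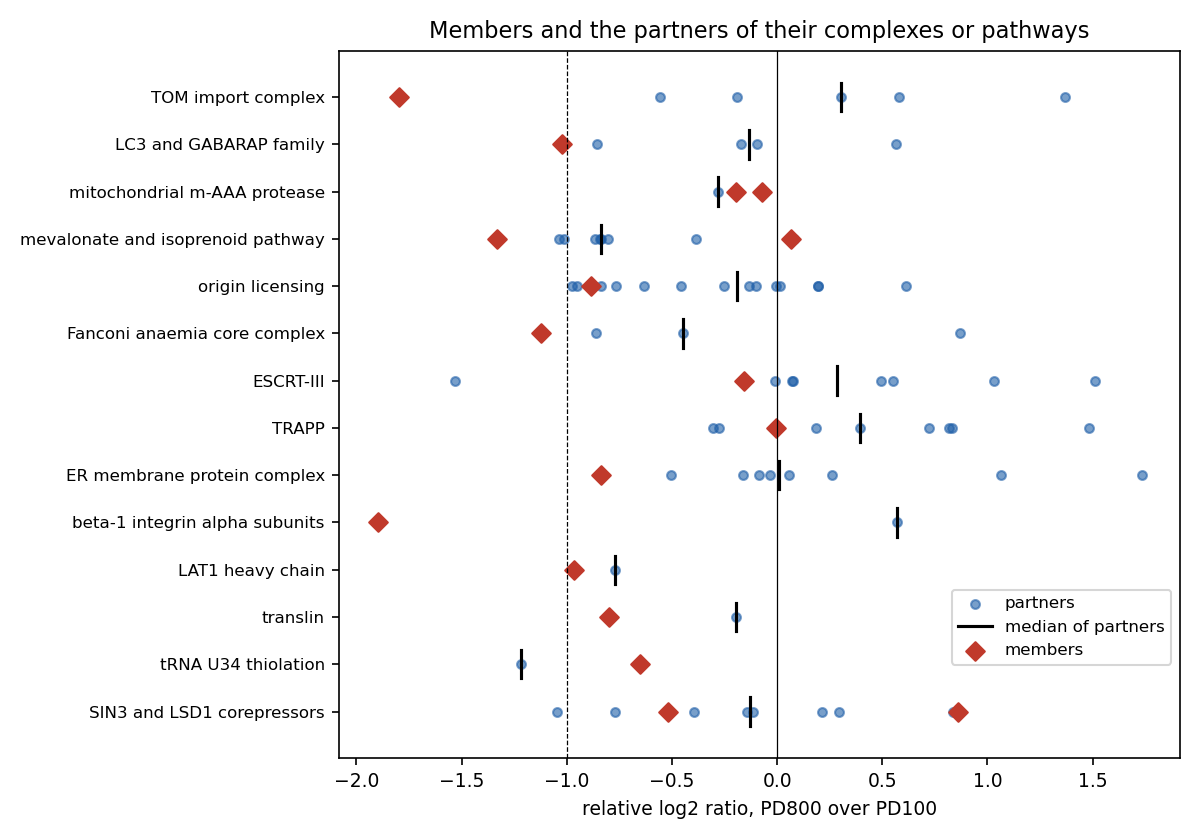
Relative log2 ratio of each tested member (red diamonds) and of the tested partners of its complex or pathway (blue circles, with their median as a black bar), 1 row for each of the 14 complexes in which both were tested; the dashed line is 2-fold lower. Tomm20 and Itgb1 stand farthest to the left of their partners, while Ctu2 and the m-AAA subunits stand to the right of theirs.

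A lower sum over a library can come from all cells or from some of them, so the members' UMIs were counted in each cell after thinning to 1000 UMIs. PD100 cells had a mean of 5.17 member UMIs and a median of 5, with quartiles of 3 and 7. PD800 cells had a mean of 2.21 and a median of 2, with quartiles of 1 and 3. No member UMI was left in 1.47% of PD100 cells and 14.8% of PD800 cells, where Poisson counts of equal mean give 0.566% and 10.96%. The variance over the mean was 1.40 at PD100 and 1.35 at PD800, above the value of 1 for Poisson counts in both libraries. This measure nears 1 as the mean falls, so the 2 values do not compare how even the cells were. The excess over 1 divided by the mean, which allows for the lower mean, was 0.0774 at PD100 and 0.159 at PD800, and without Tomm20 it was 0.106 and 0.175. With 1 library each, this difference has no replicate check.

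The protein-coding genes from Rab4a to the end had a mean of 3.10 UMIs per thinned cell at PD100 and 0.738 at PD800. The variance over the mean was 1.46 and 1.26, and the excess divided by the mean was 0.150 and 0.349. At PD800, 51.3% of cells held none of their UMIs, where Poisson counts give 47.8%; at PD100 the shares were 6.88% and 4.50%. The highest cell had 12 at PD100 and 6 at PD800. The genes from Galns to Gas8 had means of 6.32 and 6.30 UMIs, mostly of Rpl13, and of 0.760 and 0.591 without it. At this depth a cell holds too few of these UMIs for cells with and without the lower level to be told apart one by one.

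**Figure D5:**
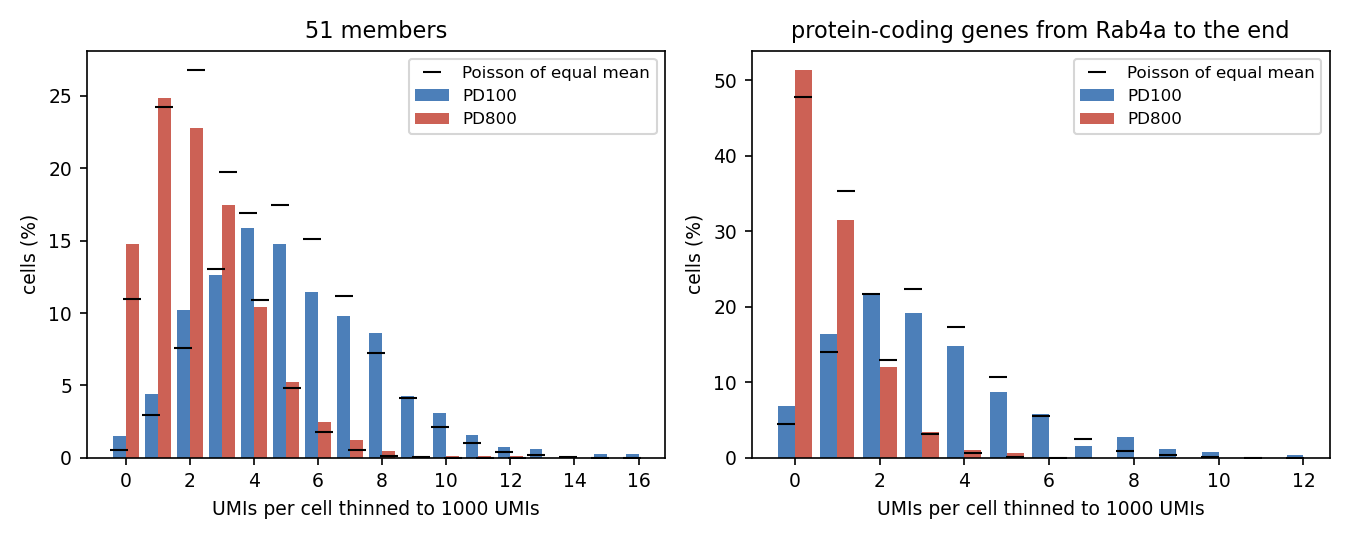
Share of cells (%) by the number of UMIs per cell thinned to 1000 UMIs, for the 51 members (left) and the protein-coding genes from Rab4a to the end (right), with PD100 in blue (814 cells), PD800 in red (900 cells) and black marks for Poisson counts of equal mean. In both panels the PD800 cells have 1 peak, at lower counts than the peak of the PD100 cells.

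The share of endoderm-marker cells differed between the libraries, so the members were also read within each kind of cell. At PD100 the 62 such cells had 5173 CPM (4838 to 5526) of member UMIs and the other 752 cells 5225 CPM (5115 to 5336). The members' sum thus did not differ between them beyond counting error, but single members differed in both directions. Itgb1 was at 164 CPM in the endoderm-marker cells of PD100 and 88.2 CPM in its other cells. Mvd was at 11.7 CPM and 61.6 CPM. At PD800 the 5 such cells had 2897 CPM (2226 to 3707) and the other 895 cells 2101 CPM (2046 to 2158). With those cells left out, the members' median relative log2 ratio was -0.89 and the summed log2 ratio -1.31. With mitochondrial genes left out of the library totals, the summed log2 ratio was -1.26.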

How the data were processed

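Single-cell libraries of Terc knock-out embryonic stem cells, 1 at PD100 and 1 at PD800, were compared; groups are the labelled times. Values are raw counts (UMIs by barcode and gene) as deposited by the authors, who ran the inDrops pipeline on a transcriptome of GRCm38/mm10 and then Scanpy; the annotation release and strand setting are not given in the sources used here. Barcodes under 1000 UMIs or over 20% mitochondrial UMIs were left out. UMIs were summed over cells and scaled to CPM, since cells are not replicates; no test was possible. Ratios have exact conditional (Clopper-Pearson), CPM exact Poisson and medians order-statistic intervals. Positions are from GENCODE M21, by symbol or, for 541 columns with that of Tarbp1 among them, by RefSeq synonym. Doublets were not called. All 51 members are named by role group, with ratios from 50 UMIs and the 12 with most UMIs in full. The members and all lists were chosen with earlier results of these data known. The functions were tested on simulated data. Python 3.11.15, NumPy 2.4.6, SciPy 1.17.1, pandas 2.3.3 and matplotlib 3.10.9 were used.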

Additional observations from a re-analysis of the deposited data

Results flagged for a closer look

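The barcodes left out by the filter on cells enter none of the comparisons above, and are given here only as data outside them. Their member UMIs were above the 12.2 CPM and 6.54 CPM that counts of 0 would allow by the rule of 3 counts. Those of any expressed genes would be above it, so nothing is read from that. There were 1227 member UMIs of 246800 in the PD100 barcodes and 979 of 458381 in the PD800 barcodes, or 4972 CPM and 2136 CPM. Relative to the median of the 2268 genes with 50 or more UMIs in these barcodes, the log2 ratio was -1.02 (-1.14 to -0.90). The protein-coding genes of the 3 stretches had relative log2 ratios of -0.72, 0.17 and -1.62 in them, in the order Gse1 to Aprt, Galns to Gas8 and Rab4a to the end. These barcodes come from the same libraries, so they are no replicate.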

How the results depend on the processing

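Of 71 values under other settings, 57 stayed within the interval of the value reported, or within 1.5 times it for a count, and none changed sign. Alternatives that concern the 3 stretches, the pair on chromosome 13, Tomm20 and protein-coding genes only were chosen after seeing the data. With library totals alone and no shift, the members' median was -1.18, 21 members were 2-fold lower, and the medians of the middle and last stretches were -0.38 and -2.14. Thinning each cell to 1000 UMIs left 8 of 21 tested members 2-fold lower and a summed log2 ratio of -1.23. A minimum of 200 UMIs left 4 of 14, a smaller share than the 13 of 35 reported. Fewer genes were tested under both settings. The summed log2 ratio was -1.26 without mitochondrial genes in the total, -0.84 with median-of-ratios scaling and -1.09 without Tomm20. The last 5 Mb of the chromosome had a median of -1.60. The variance over the mean of member UMIs per cell was 1.59 at PD100 with cells thinned to 2000 UMIs, and 3.33 and 2.84 with no thinning, where depth varies between cells. No paired analysis was possible because each group is 1 library, for which reason no library could be left out.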
